A study of Rattus norvegicus and Mus musculus with 251 samples.

Results

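The genes described here encode 10 subunits of the AMPA and NMDA receptors, measured in the prefrontal cortex (PFC) and nucleus accumbens (NAc) of mice that drank saline or morphine. They were chosen by symbol: Gria1, Gria2, Gria3 and Gria4 of the AMPA receptor, and Grin1, Grin2a, Grin2b, Grin2c, Grin2d and Grin3a of the NMDA receptor. All 10 were found among the 46078 mouse genes of the deposited count table, and all 10 passed the filter on low counts in each comparison. The 10 genes together took a median of 0.220% of the counts of a PFC library and 0.256% of an NAc library.

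The mice were of the inbred strain C57BL6J and of both sexes, and RNA came from punches 0.5 mm wide. The groups were saline, chronic morphine, and morphine followed by an interval labelled 24 h or 2 weeks. In PFC they held 6, 8, 9 and 7 libraries in that order, and in NAc 7, 8, 9 and 8. Dose, length of drinking and age were not given in the sources used here, nor which libraries came from one animal, so the p-values measure the spread between these libraries. The labels give the cell type as neuron, but RNA of glia was present in every library: Mbp, a myelin gene of oligodendrocytes, ranged from 10.6 to 12.4 log2 CPM (the count scaled to a common library total, counts-per-million) over all libraries.

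AMPA receptors carry the fast part of excitatory transmission and are tetramers of the GluA proteins encoded by the Gria genes. The GluA2 protein, the product of Gria2, limits calcium entry because its RNA is edited at a codon of the pore, called the Q/R site, where an edited transcript reads arginine in place of glutamine. NMDA receptors need glutamate and a co-agonist, and admit calcium when depolarisation removes a magnesium block. They join the obligatory subunit encoded by Grin1 with GluN2 proteins (Grin2a to Grin2d), which set the receptor's kinetics, or with GluN3 proteins such as that of Grin3a. In the NAc, glutamate inputs from cortex and other regions end on striatal projection neurons, and opioid exposure is known to alter these synapses.

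The AMPA receptor genes are close relatives, and the stretch around the Q/R site is shown because their reads have to be told apart and because this codon defines the role of Gria2. Each is coding exon sequence in transcript sense, 5′ to 3′, from GENCODE M21 (GRCm38), with the genomic codon of the Q/R site in capitals.
Gria1: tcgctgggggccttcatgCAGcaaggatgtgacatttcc
Gria2: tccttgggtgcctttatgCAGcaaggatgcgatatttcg
Gria3: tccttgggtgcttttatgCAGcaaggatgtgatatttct
Gria4: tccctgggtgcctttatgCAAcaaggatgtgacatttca
All 4 genes encode glutamine there, by CAG in 3 genes and by CAA in Gria4, so a count per gene does not tell edited from unedited Gria2. Over these 39 bases Gria3 differed from Gria2 at 3 positions, Gria4 at 5 and Gria1 at 7. No pair of the 10 genes shared a word of 75 bases, the read length, in the annotated transcripts (0 shared words).

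The depth was 5182601 to 41532464 counts per library in PFC and 22387525 to 43963295 in NAc. PFC library 10 (2 weeks, female) stood apart: it was the shallowest, 21.1% of its reads did not align, and Grin3a had 0 counts in it, which allows up to 3 counts, or 0.580 CPM, for counting error only. Counts were found for 10563 genes in this library, against 18166 or more in every other PFC library. Cortical and striatal markers differed between the regions, with an overlap for Drd1. Slc17a7, the vesicular glutamate transporter of cortical neurons, lay at 10.5 to 11.8 log2 CPM in PFC and at 9.22 in NAc library 24 and at 1.63 to 6.06 in the other NAc libraries. Drd1, a dopamine receptor of striatal neurons, reached 3.22 log2 CPM in PFC and lay at 3.18 to 8.18 in NAc. Of the 2 lowest NAc libraries for Drd1, number 6 (saline, male) was thus inside the PFC range and number 25 (chronic, female), at 3.51, was near it. Where fits were also made without these 4 libraries, results are given if that changed a call or a value by over 1.5 times.

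The first comparison asked how the 10 genes differ in level from one another without drug. Levels between genes are given as CPM per kilobase of merged exons. In saline PFC, Grin1 and Gria1 stood at the top with 67.7 ± 11.3 (SD, n = 6) and 57.5 ± 10.4, and their ranges overlapped. Gria2 followed at 24.6 ± 2.38, clear of Gria1. Gria2, Gria3 (19.2 ± 1.62), Gria4 (14.8 ± 1.68) and Grin2c (13.6 ± 1.34) each overlapped with their neighbour in this order. The remaining NMDA subunits were lower, with no overlap between Grin2c and the next: Grin2b at 8.71 ± 1.90, Grin2a at 7.71 ± 1.28, Grin2d at 3.27 ± 0.555 and Grin3a at 3.24 ± 0.730.

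In saline NAc the order began with Gria1 at 87.5 ± 10.3 CPM per kilobase (SD, n = 7), clear of Grin1 at 49.4 ± 4.43. Gria2 stood at 34.3 ± 6.43 and overlapped with Grin1, and Gria4 at 16.2 ± 2.64 overlapped with Gria3 at 14.3 ± 2.09. Below them, each neighbour in the order overlapped with the next, from Grin2b (9.03 ± 2.08) through Grin2c (7.94 ± 1.32), Grin2d (6.55 ± 2.41) and Grin3a (5.89 ± 1.89) to Grin2a. Grin2a was thus the lowest of the 10 genes in NAc, at 3.13 ± 0.903, while in PFC it was above both Grin2d and Grin3a. These orders depend on the length used: per kilobase of the longest transcript, Grin1 led in NAc at 112.0, ahead of Gria1 at 95.3, and Grin3a moved up to 9.64.

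**Figure D1:**
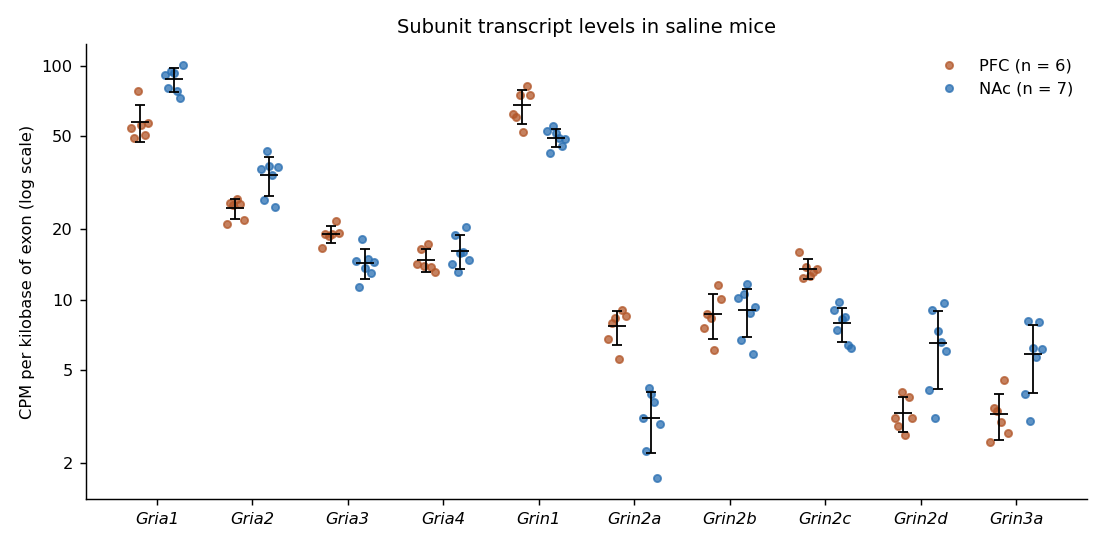
Level of each subunit gene in saline libraries, as CPM per kilobase of merged exons on a log axis; points are libraries (6 of PFC, 7 of NAc) and black bars are the mean ± SD. Grin2a is lower in every NAc library than in any PFC library, while the ranges of Grin2b overlap.

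As a share of the 4 AMPA genes per kilobase, Gria1 made up 49.3 ± 4.75% in saline PFC (SD, n = 6) and 57.4 ± 2.07% in saline NAc (n = 7). Gria2 made up 21.2 ± 1.97% and 22.3 ± 2.39%. Gria3 held 16.6 ± 1.90% in PFC, where its lowest library was at 13.8%, against 9.41 ± 0.984% in NAc, where its highest was at 10.7%. Among the 4 GluN2 genes, Grin2a held 23.1 ± 2.00% in PFC and 11.6 ± 2.69% in NAc, and the libraries did not overlap. Grin2d went the other way, with 9.82 ± 1.05% in PFC and 25.02 ± 10.4% in NAc, where it ran from 11.3% to 41.0% and overlapped with PFC.

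The second comparison asked which subunits differ between NAc and PFC in saline mice. Of the 10 genes, edgeR's quasi-likelihood test called 8 (an adjusted p under 0.05 over all genes tested), 4 higher in NAc and 4 lower. Over all 17296 genes tested, 47.2% were called, and the 8 of 10 are to be read against that share. The median log2 difference of the 10 genes was 0.09, against 0.05 over all genes. In such bulk tissue, fewer cells of a type and less RNA per cell cannot be told apart.

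Of the AMPA receptor genes, Gria1 and Gria2 were higher in NAc. Gria1, whose product forms calcium-permeable receptors where GluA2 is absent, lies on chromosome 11 (57011387 to 57330244, plus strand, GRCm38). It ranged from 298 to 471 CPM with a median of 333 in PFC, and from 441 to 612 with a median of 554 in NAc. Only the highest PFC library, female number 3, reached into the NAc range, and the log2 difference was 0.61 ± 0.11 (SE, edgeR adjusted p = 0.000539). Gria2 (chromosome 3, 80681450 to 80802835, minus strand) ranged from 329 to 420 CPM in PFC with a median of 398, and from 388 to 676 in NAc with a median of 561. The NAc libraries below the PFC maximum were female number 2 and male number 6, and the log2 difference was 0.49 ± 0.12 (edgeR adjusted p = 0.00511).

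Gria3, on the X chromosome (41400854 to 41678601, plus strand), was lower in NAc. It ranged from 165 to 215 CPM in PFC with a median of 188, and from 112 to 179 in NAc with a median of 143. NAc female number 3 alone was above the lowest PFC library, and the log2 difference was -0.41 ± 0.10 (edgeR adjusted p = 0.00291). Gria4, whose product is abundant in interneurons of the forebrain (chromosome 9, 4417896 to 4796234, minus strand), was not called. Its range in PFC, 82.6 to 109 CPM, lay within its range in NAc, 82.5 to 129. Its log2 difference of 0.12 had a 95% interval of -0.12 to 0.36.

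Of the NMDA receptor genes, Grin1, Grin2a and Grin2c were lower in NAc, and Grin2d and Grin3a higher. Grin1 (chromosome 2, 25291181 to 25319187, minus strand) ranged from 505 to 798 CPM in PFC with a median of 664, and from 411 to 537 in NAc with a median of 479. PFC male number 5 lay inside the NAc range, and the log2 difference was -0.45 ± 0.11 (SE, edgeR adjusted p = 0.00318). The antisense gene Grin1os overlaps Grin1, and whether the counting used the strand is not stated, so reads of the pair may be mixed.

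Grin2a (chromosome 16, 9567898 to 9995560, minus strand) had the largest difference in size of the 10 genes. GluN2A, its product, gives receptors fast kinetics and becomes more abundant as the cortex matures. In PFC the libraries lay at 121, 143 and 149 CPM in females and at 101, 163 and 153 in males. In NAc they lay at 56.2, 40.5 and 75.3 CPM in females and at 71.0, 65.8, 30.9 and 52.6 in males. No NAc library reached the lowest PFC library, and NAc was at 0.407 times PFC (95% interval 0.307 to 0.540, log2 difference -1.30 ± 0.19 SE, edgeR adjusted p = 6.62e-05).

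Grin2b (chromosome 6, 135713233 to 136173511, minus strand), whose GluN2B product gives slower receptors, did not share that difference. It ranged from 151 to 286 CPM in PFC with a median of 212, and from 145 to 289 in NAc with a median of 232. Its log2 difference of 0.06 had a 95% interval of -0.31 to 0.42, which leaves out the value of Grin2a. Grin2c (chromosome 11, 115249169 to 115267243, minus strand) is known in forebrain mainly from astrocytes and some interneurons. It ranged from 62.2 to 81.0 CPM in PFC and from 31.4 to 49.2 in NAc, without overlap, and the log2 difference was -0.76 ± 0.10 (edgeR adjusted p = 2.40e-05). Astrocyte markers moved the same way: 4 of 6 were lower in NAc and none higher, with Gfap at a log2 difference of -1.47. Within NAc they went apart: Grin2c rose with the content of striatal markers while most astrocyte markers fell, as given below. The part of astrocytes in the result was not tested.

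Grin2d and Grin3a were higher in NAc but spread widely there. Grin2d (chromosome 7, 45831883 to 45878378, minus strand), whose product gives very slow receptors and is known from interneurons, ranged from 17.5 to 26.9 CPM in PFC with a median of 20.8. In NAc it ranged from 20.8 to 64.7 with a median of 43.8, and female number 3 and male number 6 held the ends. The log2 difference was 0.95 ± 0.22 (SE, edgeR adjusted p = 0.00228). Grin3a (chromosome 4, 49661611 to 49845744, minus strand), whose GluN3A product lowers calcium entry through the receptor, ranged from 30.2 to 55.6 CPM in PFC with a median of 38.9. In NAc it ranged from 37.3 to 99.4 with a median of 75.9, and the log2 difference was 0.83 ± 0.21 (edgeR adjusted p = 0.00425). Kdelr1 overlaps Grin2d and Ppp3r2 lies within Grin3a on its strand, and reads from the overlaps may be counted to either gene or to none.

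Leaving out any 1 of the 13 saline libraries kept all 8 calls and added none. Without NAc number 6, the only saline library among those that stood apart, 8 genes were called as well. The cell type markers moved with region as the tissue labels say: all 8 striatal markers were higher in NAc and 6 of 7 cortical markers lower. Drd1 differed by 3.72 ± 0.53 log2 units, Drd2 by 6.52 ± 0.64, Slc17a7 by -8.01 ± 0.35 and Neurod6 by -7.76 ± 0.23. Of the other lists, 4 of 7 interneuron genes were higher and 2 lower (Gad2 2.51), 4 of 6 general neuronal genes were lower (Snap25 -1.22), and all 5 endothelial and mural genes were lower (Rgs5 -1.36). In the interneuron list, Pvalb and Vip went the other way from Gad2. Their saline means were 6.04 and 5.09 log2 CPM in PFC and 4.09 and 1.31 in NAc. Among glia, 4 of 5 oligodendrocyte genes and 2 of 4 precursor genes (Pdgfra 0.72) were higher, and 0 of 5 microglial genes passed the test. Of 4 choroid plexus genes 2 were higher (Kl 1.24), and Ttr, at 2.50 ± 1.08, was not called.

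The same contrast was then made in the other treatment groups, each fitted alone, with calls for 44.7% of all genes under chronic morphine, 50.5% at 24 h and 32.1% at 2 weeks. Of the 10 subunit genes, 5, 7 and 6 were called in that order. Gria1, Gria2, Grin1, Grin2a and Grin2c were called in all 4 treatment groups with the same direction. The share of all genes called in all 4 was not counted, so these calls are not read as particular to the subunits. Of these 20 calls 1 changed when single libraries were left out: without NAc female number 27, Gria2 under chronic morphine missed the threshold (0.42, edgeR adjusted p = 0.0540). These fits did not pair libraries of equal number. With the library number as a block, Gria2 at 2 weeks missed the threshold and Gria3 under chronic morphine was called, with values given in the last section. Gria1 was higher in NAc by 0.58 ± 0.15 (chronic), 0.72 ± 0.11 (24 h) and 0.69 ± 0.10 (2 weeks) log2 units. Grin2a was lower, at -1.31 ± 0.16, -1.17 ± 0.14 and -1.09 ± 0.15, and no NAc library of any treatment group overlapped with the PFC libraries of that group.

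Gria4 and Grin2b were called in none of the 4 groups. Gria3 was also called at 24 h (-0.29 ± 0.11, edgeR adjusted p = 0.0305) but not under chronic morphine (-0.32 ± 0.13, adjusted p = 0.0670) or at 2 weeks (-0.18 ± 0.15, adjusted p = 0.412). Grin2d was called at 2 weeks (0.65 ± 0.23, edgeR adjusted p = 0.0431), and its values under chronic morphine and at 24 h were 0.26 ± 0.33 and 0.36 ± 0.24. Grin3a was called at 24 h (0.51 ± 0.19, edgeR adjusted p = 0.0298), a call lost without the NAc library that stood apart (0.46, adjusted p = 0.0520). With single libraries left out in turn, Gria3 at 24 h kept its call in 10 of 18 fits, Grin3a at 24 h in 13 of 18 and Grin2d at 2 weeks in 4 of 15, while Gria3 under chronic morphine gained one in 3 of 16. These single calls do not show a difference between treatment groups. The test of treatment effects by region, over all 62 libraries, called 0 of the 10 genes and 0.0363% of all genes. Its smallest unadjusted p among the 10 was 0.352, for Grin2d, and DESeq2 called 0 of them as well.

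**Figure D2:**
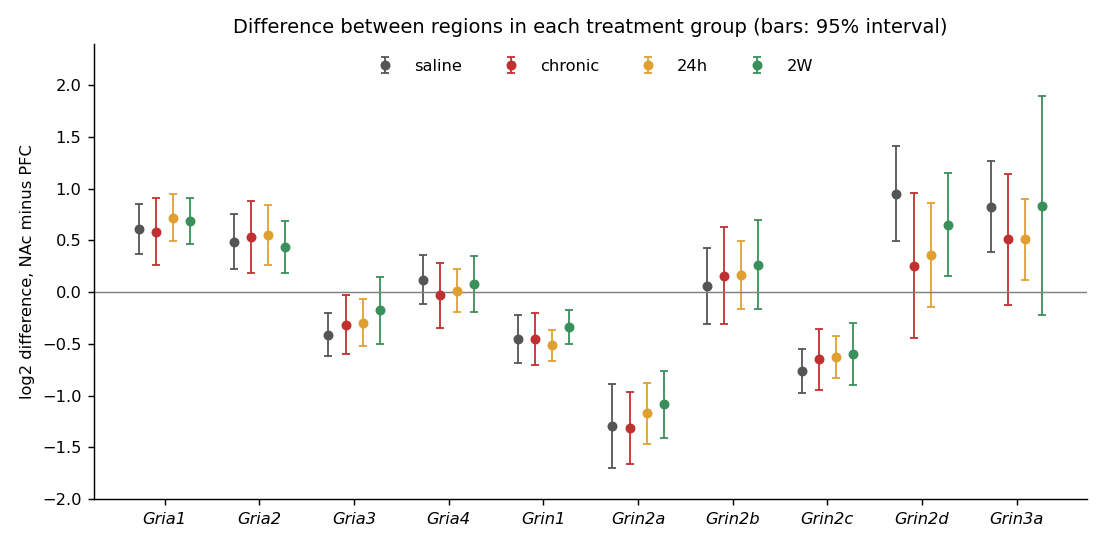
Log2 difference between NAc and PFC for each subunit gene, in the saline, chronic, 24h and 2W groups; points are edgeR estimates and bars their 95% intervals. The 4 estimates of Grin2a lie between -1.31 and -1.09, and those of Gria4 and Grin2b have intervals that span 0.

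Because the products of Grin2a and Grin2b take the same places in the NMDA receptor, their ratio was compared within libraries, per kilobase of exon. In saline PFC the log2 ratio ranged from -0.35 to -0.01 with a mean of -0.17 ± 0.12 (SD, n = 6). In saline NAc it ranged from -1.76 to -1.26 with a mean of -1.55 ± 0.19 (n = 7). The groups did not overlap, and the difference averaged over the sexes was -1.38 (exact permutation test within sex, 2-sided, p = 0.00143, the smallest that 700 exchanges allow, adjusted p = 0.02 over 14 tests). With 1 NAc male left out, including number 6, fewer exchanges exist and the adjusted p was 0.07, at differences of -1.43 to -1.35. In the other groups, a later family of 6 tests, the differences were -1.49 (chronic), -1.33 (24 h) and -1.39 (2 weeks), with adjusted exact permutation p of 0.000794, 0.000680 and 0.000794. This later family was not repeated without the libraries that stood apart.

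The ratio of Gria1 to Gria2, which bears on the calcium permeability of AMPA receptors, did not separate the regions in saline mice. Its log2 mean was 1.22 ± 0.27 in PFC (SD, n = 6) and 1.37 ± 0.17 in NAc (n = 7), with ranges that overlapped (exact permutation p = 0.276, adjusted p = 0.790). At 2 weeks it was higher in NAc by 0.27, at 1.34 ± 0.14 against 1.09 ± 0.14 (adjusted exact permutation p = 0.0143, n = 8 and 7). The lowest PFC value at 2 weeks, 0.83, was that of PFC library 10, which stood apart. Whether the difference at 2 weeks holds without that library was not tested. Under chronic morphine and at 24 h the differences were 0.13 and 0.20, with adjusted exact permutation p of 0.611 and 0.0939.

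**Figure D3:**
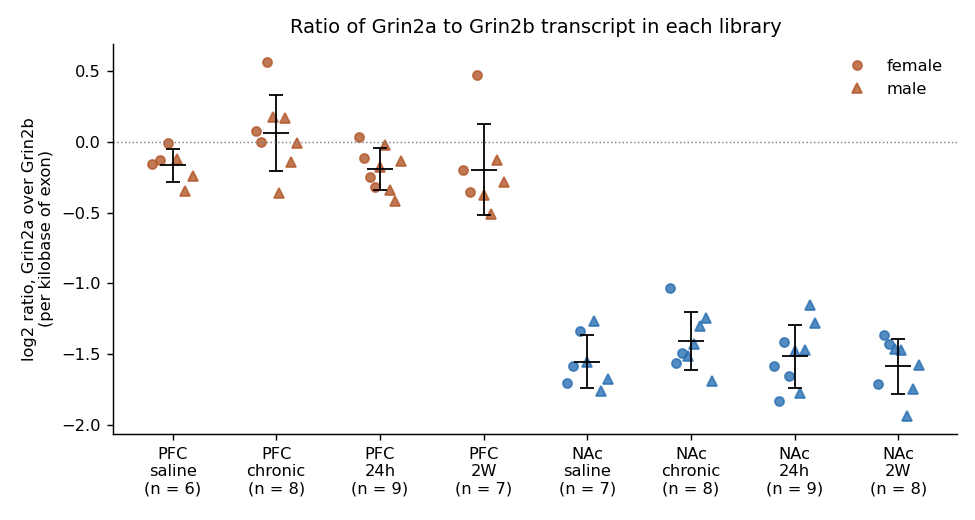
Log2 ratio of Grin2a to Grin2b, per kilobase of exon, in each library by region and treatment; circles are females, triangles males, and black bars the mean ± SD. All NAc libraries lie below all PFC libraries, and the highest PFC values are female libraries of the chronic and 2W groups.

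The third comparison asked whether morphine altered the subunit transcripts. None of the 10 genes passed the test in PFC or NAc at any stage (edgeR, 0 of 10 in each of 6 contrasts), and DESeq2 called none either. In PFC the background was 0.417% of all genes called under chronic morphine, 0.0779% at 24 h and 0.00557% at 2 weeks. In NAc it was 1.69%, 0.163% and 0.00544%, and read against these shares a count of 0 among 10 genes is near the background. At an unadjusted p under 0.05 the members numbered 2, 0 and 0 in PFC and 1, 2 and 0 in NAc. Over all genes that share was 7.91%, 3.01% and 5.04% in PFC and 15.2%, 12.1% and 6.44% in NAc.

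Grin2a had the smallest p of the 10 genes under chronic morphine in both regions. In PFC it ranged from 101 to 163 CPM in saline libraries with a median of 146, and from 124 to 229 under chronic morphine with a median of 216. The groups overlapped, and the log2 difference of 0.46 ± 0.16 (SE) had an edgeR adjusted p of 0.379. In NAc the range was 30.9 to 75.3 CPM in saline with a median of 56.2, and 50.3 to 96.2 under chronic morphine with a median of 79.1. The log2 difference there was 0.43 ± 0.19 (edgeR adjusted p = 0.251). After morphine, Grin2a medians in PFC were 175 CPM at 24 h and 140 at 2 weeks, and in NAc 76.3 and 70.3. The log2 differences from saline were 0.28 and 0.14 in PFC and 0.39 and 0.35 in NAc, with adjusted p of 0.385 or more.

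Grin2b estimates were above 0 in all 6 contrasts, from 0.19 (PFC, 2 weeks) to 0.39 (NAc, 24 h, edgeR adjusted p = 0.411), and these contrasts share the saline libraries of their region. Its NAc medians were 232 CPM in saline, 298 under chronic morphine, 313 at 24 h and 292 at 2 weeks. Its highest saline library, at 289, lay above the lowest library of every morphine group. The log2 ratio of Grin2a to Grin2b in PFC was 0.06 ± 0.27 (SD, n = 8) under chronic morphine against -0.17 ± 0.12 (n = 6) in saline. That difference of 0.26 had an exact permutation p of 0.0321, and 0.225 after adjustment over the 14 ratio tests. The other 5 morphine contrasts of this ratio lay between -0.02 and 0.15.

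Grin2d under chronic morphine in PFC rested on 1 library. It ranged from 17.5 to 26.9 CPM in saline and from 18.4 to 59.9 under chronic morphine, where the medians were 20.8 and 27.3. The log2 difference was 0.48 ± 0.20 (SE, edgeR adjusted p = 0.550), and 0.20 without female number 25, the library at 59.9. The same library was the highest for Gria1, at 645 CPM against 296 to 425 in the rest of its group. Its cell type markers differed from other PFC libraries as well. Drd2 was at 3.16 log2 CPM, the highest of PFC (median -1.15), and Slc17a7 at 10.5, the lowest. The mean of its oligodendrocyte markers, 9.81, was the highest, while Drd1, at 2.25, lay below the PFC median of 2.73. The part of this in the 2 genes was not tested. Without this library, the log2 difference of Gria1 went from 0.20 to -0.02. In NAc, where Grin2d libraries ranged from 8.92 to 75.0 CPM, the stage differences were -0.22 ± 0.36, -0.51 ± 0.34 and -0.16 ± 0.36.

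None of the other subunits had an estimate whose interval left out 0. Grin1 lay between -0.06 and 0.12 log2 units in the 6 contrasts, with 95% intervals within -0.28 to 0.33. Gria2 lay between 0.08 and 0.19, Gria3 between -0.10 and 0.14, Gria4 between -0.12 and 0.18 and Grin2c between -0.19 and 0.10. Gria1 reached at most 0.20, and Grin3a lay between -0.31 (NAc, 24 h) and 0.25 (PFC, chronic). The intervals of Grin2d in NAc and of Grin3a in both regions were the widest, with those of Grin3a in PFC reaching from -0.95 to 0.98. In PFC this width goes with library 10, where Grin3a had 0 counts: the SD of its log2 CPM over the PFC libraries was 1.73 with that library and 0.32 without it. The PFC estimate of Grin3a at 2 weeks was -0.20 with library 10 and 0.07 without it. The median difference of the 10 genes ran from -0.03 (PFC, 2 weeks) to 0.19 (PFC, chronic), against -0.05 and 0.01 over all genes in those contrasts.

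**Figure D4:**
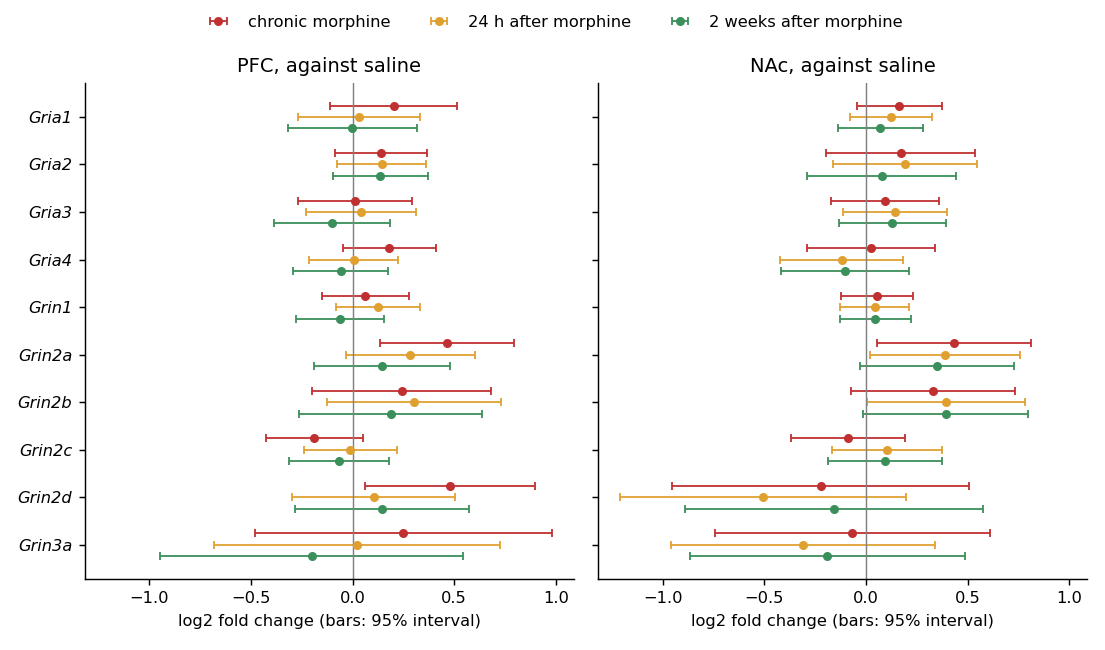
Log2 fold change against saline of each subunit gene under chronic morphine and at 24 h and 2 weeks after it, in PFC (left) and NAc (right); points are edgeR estimates and bars unadjusted 95% intervals. Intervals that leave out 0 belong to Grin2a and Grin2d in PFC and Grin2a and Grin2b in NAc, and none of these genes was called after adjustment.

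Whether morphine acted differently in males and females was tested on the 3 stage differences together. The test called 0 of 10 subunit genes in PFC, beside 0% of all genes, and 0 of 10 in NAc, beside 0.0544%. DESeq2 called none of the 10 in either region, and no subunit had an unadjusted p under 0.05. The smallest p in NAc was that of Grin2d, at 0.0965. Its stage effects in males minus those in females were -1.02 under chronic morphine, 0.66 at 24 h and -0.58 at 2 weeks, on the log2 scale.

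Genes that act beside the subunits were followed as a list of 48: auxiliary subunits, kainate and delta receptors, metabotropic receptors, scaffold and trafficking proteins, and RNA editing and co-agonist enzymes. In the 6 morphine contrasts edgeR called 0 of the 48. Under chronic morphine, 7 of 48 (14.6%) had an unadjusted p under 0.05 in each region, beside 7.91% of all genes in PFC and 15.2% in NAc, and at the later stages at most 5 of 48 had one. In saline mice 34 of the 48 differed between the regions, 14 higher in NAc and 20 lower, with a median log2 difference of -0.14. Over all genes 47.2% were called there.

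Among the 12 AMPA receptor auxiliary genes, which govern the traffic and gating of the receptor, 3 were higher in NAc and 6 lower. The TARP genes went apart: Cacng4 was higher by 1.59 and Cacng5 by 1.47, while Cacng7 differed by -0.96 and Cacng2 (stargazin) by -0.71 log2 units. Cnih3, a cornichon, was lower (-1.77) and Shisa9 higher (1.01). Of the 16 scaffold and trafficking genes 10 were lower in NAc and 1 higher. The lower ones included Shank1 (-2.10), Camk2a (-2.06), Dlgap1 (-1.88) and Shank2 (-1.27), which encode parts of the postsynaptic density. Of the 9 kainate and delta receptor genes 6 were higher and 1 lower, with Grik2 at 1.86 and Neto2 at 0.53. Of the 7 metabotropic genes 3 were higher and 1 lower (Grm2 -2.94), and of the remaining 4 genes 1 was higher and 2 lower.

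Within NAc the subunit levels varied with the content of striatal markers. A striatal marker score was taken as the mean log2 CPM of 8 genes of striatal projection neurons, among them Drd1, Drd2, Adora2a and Ppp1r1b. It ranged from 4.17 to 8.99 over the 32 NAc libraries and from 2.49 to 3.48 in PFC, leaving aside library 10 at -0.62. Its medians in NAc were 7.61 in saline, 8.07 under chronic morphine, 7.78 at 24 h and 7.52 at 2 weeks, and the ranges of the 4 groups overlapped. The means were 6.90 ± 1.47 (SD), 7.58 ± 1.48, 7.53 ± 0.95 and 7.70 ± 0.54 in that order. Saline thus had the lowest mean, with its 2 lowest libraries at 4.17 and 5.63. The slope on this score, with the treatment by sex means in the model, was added after the values had been seen. All 10 subunit genes were called for it, 7 with a rising and 3 with a falling slope, and 42.9% of all genes were called.

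Per unit of the score, Grin2b rose by 0.30 ± 0.04 log2 units (SE, edgeR adjusted p = 1.37e-07), Grin2a by 0.27 ± 0.04 and Gria2 by 0.27 ± 0.03. Gria3 rose by 0.16 ± 0.03, Grin2c by 0.13 ± 0.04, Gria1 by 0.12 ± 0.03 and Grin1 by 0.12 ± 0.02. Against them, Grin2d fell by 0.48 ± 0.08 (edgeR adjusted p = 3.47e-05), Grin3a fell by 0.47 ± 0.07 and Gria4 fell by 0.22 ± 0.03. The libraries at the ends show the size. In the library with the lowest score (saline, male number 6) Grin2d lay at 64.7 CPM, Grin3a at 98.3 and Gria2 at 388. In the library with the highest score (chronic, male number 28) they lay at 8.92, 21.7 and 812.

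Without NAc libraries 6, 24 and 25 all 10 slopes kept their call and sign. The slope of Grin2d was then -0.83, that of Grin3a -0.79, that of Gria3 0.28 and that of Grin2c 0.24, all over 1.5 times as steep. Other markers moved with the score as well. Among glial lists, 5 of 6 astrocyte, 5 of 5 oligodendrocyte and 4 of 4 oligodendrocyte precursor genes fell with it, as did 3 of 7 cortical and 3 of 7 interneuron genes. The part of these cell types in the slopes was not tested. With the score as a covariate in the morphine contrasts, 0 of 10 subunit genes were called at any stage in either region. The NAc difference of Grin2a under chronic morphine was then 0.33 (edgeR adjusted p = 0.0974).

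**Figure D5:**
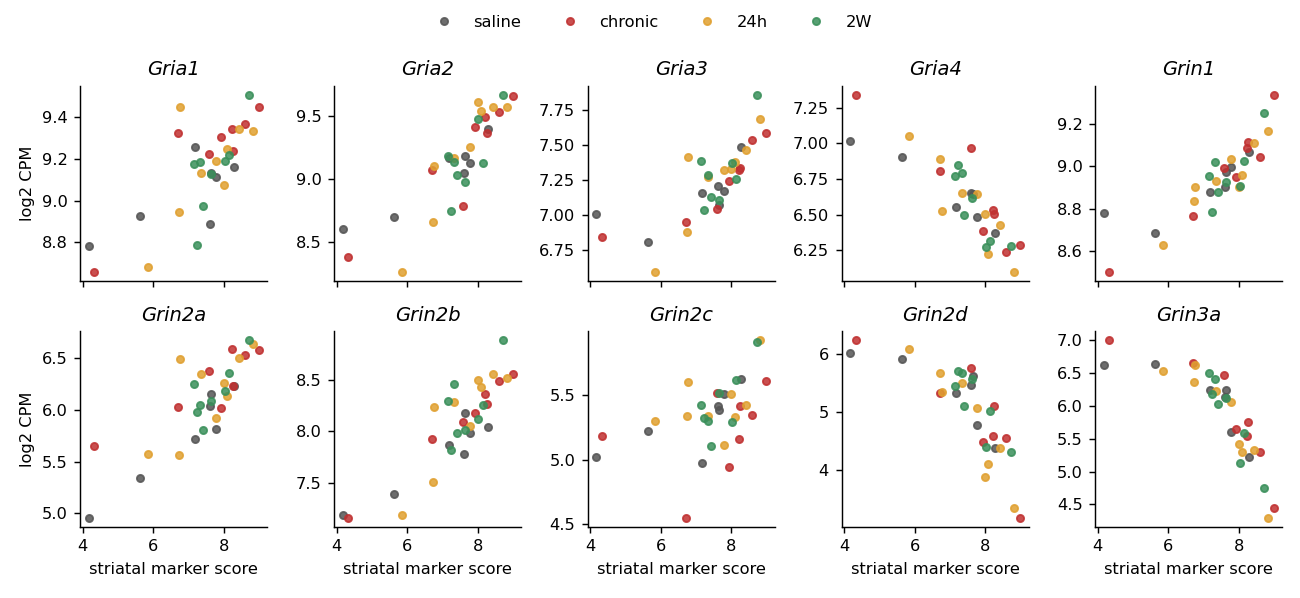
Log2 CPM of each subunit gene (y axis, its own range in each panel) against the striatal marker score (x axis, mean log2 CPM of 8 marker genes) in the 32 NAc libraries, coloured by treatment. Grin2d, Grin3a and Gria4 fall with the score and the other 7 rise, and the 2 libraries at scores of 4.17 and 4.32 lie at the ends of most panels.

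The partners of the receptor followed the score too, with 41 of 48 pathway genes called, 27 rising and 14 falling, beside 42.9% of all genes called. The steepest risers by p were Neto1 (0.48 log2 units per unit of score), Homer1 (0.58), Gsg1l (0.50), Grm4 (0.48) and Cacng3 (0.42).

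Likeness between genes was taken as the Pearson correlation of their log2 CPM deviations from the group means over all 62 libraries, a description, since the values share libraries and punches. The nearest genes were Cacna1e for Grin2b (Pearson r = 0.93) and Mef2a and Celf2 for Gria2 (0.92 and 0.91). Hivep2 was nearest to Gria3 (0.91), Nynrin to Grin2d (0.91), Adgrl1 to Grin1 (0.89), Slc36a4 to Gria4 (0.87), Grin2b to Grin2a (0.87), Doc2b to Gria1 (0.84) and Wsb2 to Grin2c (0.72). For Grin3a it was Pnma3 (0.98). Without PFC library 10, Gria1, Gria3, Grin1 and Grin2c kept their nearest gene and the other members did not. The nearest gene was then Ddx5 for Gria2 (0.93), Oxr1 for Gria4 (0.87), Usf3 for Grin2a (0.89), Nhsl2 for Grin2b (0.94), and Disp2 for both Grin2d (0.94) and Grin3a (0.94).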

How the data were processed

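Total RNA of punches from mouse PFC and NAc was sequenced in read pairs of 75 bases, per the labels' protocols. The authors deposited raw counts of reads per gene in 1 table, whole numbers with 1 column for each of the 62 mouse libraries, and no column went unused. Per the submitters' processing notes, FastQC, cutadapt, STAR, RSEM, Trimmomatic and HISAT2 and the builds GRCm38 and Rnor_6.0 were used in the series. Which of them made the mouse counts, and whether strand was used, is not given in the sources used here. Library sizes left out reads without a gene assignment and 2 reporter sequences. Their median share of all reads in PFC and NAc was 5.36% and 5.47% outside genes, 0.832% and 0.834% ambiguous, 0.605% and 0.540% unaligned and 13.7% and 15.3% aligned to several places. The rat samples of the series, which has 251 samples in all, were not analysed here. Symbols were matched for 45143 of 46078 identifiers with GENCODE M21.

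Groups were taken from the labels. Counts were tested with edgeR 4.0.16 in R 4.3.3 (TMM, filterByExpr, quasi-likelihood F tests, Benjamini-Hochberg over all genes tested, threshold 0.05), with treatment by sex means and contrasts averaged over the sexes. The 3 stage contrasts of a region share its saline libraries and 1 estimate of the spread. Saline libraries alone entered the region contrast, and all 62 entered the test of treatment by region. Log2 CPM used a prior count of 2. Ratios were tested by exact permutation within sex, and levels between genes were scaled by the merged exon length. No pair of the 95 pairs of libraries within a group was a duplicate: their lowest chi-square per degree of freedom was 13.2. Intervals and floors for counts cover counting error only. The fits were tested on simulated data. For chronic morphine in PFC, 81% of 100 genes changed by 1 log2 unit were called, and 28% of 100 changed by 0.5. In the test of treatment by region these shares were 74% and 21%, and in the saline region contrast 95% and 42%. The lack of a call for morphine thus says little about changes of 0.5 log2 units or less. Of the morphine contrasts, only chronic morphine in PFC was simulated, with more genes changed than the 75 called in the data. For the later stages in PFC and for all stages in NAc, the share of larger changes that would be called was not measured.

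The members, the pathway list and the marker lists were chosen with earlier results of these data known. All 10 members are named. Pathway genes were named by the smallest p among those called, at most 15 in a comparison. Each marker list gave its gene with the smallest p, besides Slc17a7, Drd1, Drd2 and Ttr. Some genes that these rules would name are not reported here. The alternatives were DESeq2 1.42.0, its size factors, no count filter, each library left out, the striatal score as a covariate, the library number as a block, and a pseudocount, medians or another length for ratios and levels. The slope on the striatal score, the region contrast under morphine and the fits without PFC library 10 and NAc libraries 6, 24 and 25 were added after the data had been seen.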

Additional observations from a re-analysis of the deposited data

Results flagged for a closer look

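In 96 sets of values (a gene or ratio in 1 group of 4 to 10 libraries), the highest or lowest library was tested for its gap to the nearest other. The gap passed Dixon's 95% limit in 10 sets, and chance alone passes about 1 set in 20. Values are in log2 CPM unless given as a ratio.

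Libraries numbered 25 (female, chronic morphine) account for 5 of the 10. In PFC, number 25 was the highest of its group for Gria1 at 9.33, where the next library was at 8.73, and for Grin2d at 5.91, with the next at 4.93. Its log2 ratio of Gria1 to Gria2 was 2.26, against 1.33 in the nearest library. In NAc, number 25 was the lowest for Gria1 at 8.66 (next 9.22) and for Grin2b at 7.16 (next 7.92), and its striatal marker score of 4.32 was the lowest of its group.

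PFC library 10 (2 weeks, female) was the lowest for Grin3a at -3.96, the value given by 0 counts, with the nearest library at 4.94. Its log2 ratio of Grin2a to Grin2b, 0.47, was the highest of its group, and the next was -0.13. The remaining 3 libraries stood out for single genes. Gria1 was at 8.88 in PFC saline female number 3 (next 8.43). Gria3 was at 7.10 in PFC female number 20 at 24 h, the lowest of its group, and at 7.86 in NAc male number 14 at 2 weeks, the highest (next 7.38).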

How the results depend on the processing

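The number of subunit genes called stayed within 1.5 times under all 473 alternative values computed for it, and was 0 in the 6 morphine contrasts, by sex and by region under each setting run. No called value changed sign. The Grin2a to Grin2b difference between the regions in saline mice was -1.41 as a difference in medians (adjusted exact permutation p = 0.16) and -1.35 without NAc library 6 (0.07). With libraries left out in turn it ran from -1.44 to -1.34, with adjusted p of 0.04 to 0.07, since fewer exchanges exist. Counts over all genes moved more. With DESeq2 the 3 stages called 173, 46 and 5 genes in PFC (edgeR 75, 14 and 1) and 691, 132 and 30 in NAc (edgeR 311, 30 and 1), 48 and 93 genes by sex (edgeR 0 and 10) and 28 by region (edgeR 7). Chronic morphine in PFC called 178 genes without library 10 and 46 without saline female number 1. In NAc it called 566 without number 25 and 120 without number 27, 185 with no count filter and 686 with the striatal score. At 24 h in NAc, 3 to 49 genes were called with libraries left out. Per kilobase of the longest transcript, 11 of 20 saline levels moved by over 1 SD. Same-numbered PFC and NAc libraries had correlated deviations of 0.01 to 0.22 (30 pairs, 5 over 0.1). Of these pairs, 23 were highest with their own number, so in most cases same-numbered libraries were more alike than others of their group. Whether they share an animal is not stated in the labels. The numbers were used as a block only in an alternative fit, and the main tests between regions ignore any such pairing. With the replicate block, 8 subunit genes and 7415 genes were called in saline, and 0 and 7 for treatment by region. The Grin2a to Grin2b difference in saline was -1.39 over same-numbered pairs (exact sign-flip test, p = 0.0313, not adjusted). In that fit, Gria3 under chronic morphine was called between the regions (-0.32, edgeR adjusted p = 0.0226) and Gria2 at 2 weeks was not (0.40, adjusted p = 0.0518).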
